A study of Mus musculus with 6 samples.

Results

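Silencing of PARP2 in C2C12 mouse myoblasts was accompanied by higher mRNA of most enzymes that make cholesterol. The genes described are 31 genes of cholesterol synthesis, of its control by sterol regulatory element binding proteins (SREBPs) and of sterol trafficking, grouped by function and listed with earlier results of these data known. On the arrays 29 of the 31 had a probe set that names only that gene, out of 19938 genes with such a probe set, and each gene was read at the brightest of its probe sets by the mean of all 6 arrays. Of the 29 genes, 23 were higher and 2 were lower in shPARP2 than in scPARP2 cells at an adjusted p under 0.05 from limma. For all genes the shares were 12.4% higher and 11.6% lower. The median log2 fold change of the 29 genes was 0.69 against -0.02 for all genes. The mRNAs of 17 of the 18 synthesis enzymes rose, 11 of them at least 2-fold, while 1.86% of all genes rose that much.

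C2C12 is an established line of mouse myoblasts, the dividing precursors of muscle fibres. All cells carried a lentiviral short hairpin RNA, directed at PARP2 in shPARP2 cells and scrambled in scPARP2 cells. The lentivirus was used at a multiplicity of infection of 40 in both lines. All cells were grown in high-glucose medium with fetal calf serum, which itself brings lipoprotein cholesterol. The lines were kept under puromycin, and each carries a single interfering sequence, so the effect of PARP2 loss and an effect of that sequence elsewhere cannot be told apart. The arrays were Affymetrix Mouse Gene 1.0 ST, with 3 samples per line and an array for each. Nothing in the sources used here gives a time after transduction or says that the samples of a line were grown apart, and the p-values may therefore reflect technical spread alone.

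The targeted gene was checked first. Parp2, which encodes a DNA-break-activated poly(ADP-ribose) polymerase, read 8.94, 9.13 and 9.05 in scPARP2 replicates 1 to 3 and 7.86, 8.14 and 7.91 in shPARP2 replicates 1 to 3 (log2 expression; all values by array below are in this order). The lines did not overlap, with a log2 fold change of -1.07 (moderated standard error, SE, 0.10, limma adjusted p = 0.00103). The labelled cell type could be looked at only roughly, since probe sets differ in affinity. A mean signal above the median of all probe sets was found for 10 of 11 myoblast markers. Below that median lay 2 of 12 myotube and 0 of 11 proliferation markers, so this check does not tell myoblasts from myotubes. The array medians lay between 7.04 and 7.18. The shPARP2 arrays were more spread than the scPARP2 arrays, with a median SD per gene of 0.125 against 0.0613 on the log2 scale.

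Cholesterol is built in the endoplasmic reticulum from acetyl-CoA. The mevalonate steps make isoprenoid units, which are joined to squalene, closed to lanosterol and then trimmed to cholesterol. The pathway is governed by SREBP2. When membrane sterol is plentiful, SCAP and the SREBP2 precursor are held in the endoplasmic reticulum by INSIG proteins. When it is scarce, SCAP escorts the precursor to the Golgi, where the site-1 and site-2 proteases release its transcription factor domain. This domain binds sterol regulatory elements (SREs) in the promoters of the synthesis genes, often beside a CCAAT box bound by NF-Y. Myoblasts also need cholesterol for the membranes that fuse when they become myotubes.

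**Figure D1:**
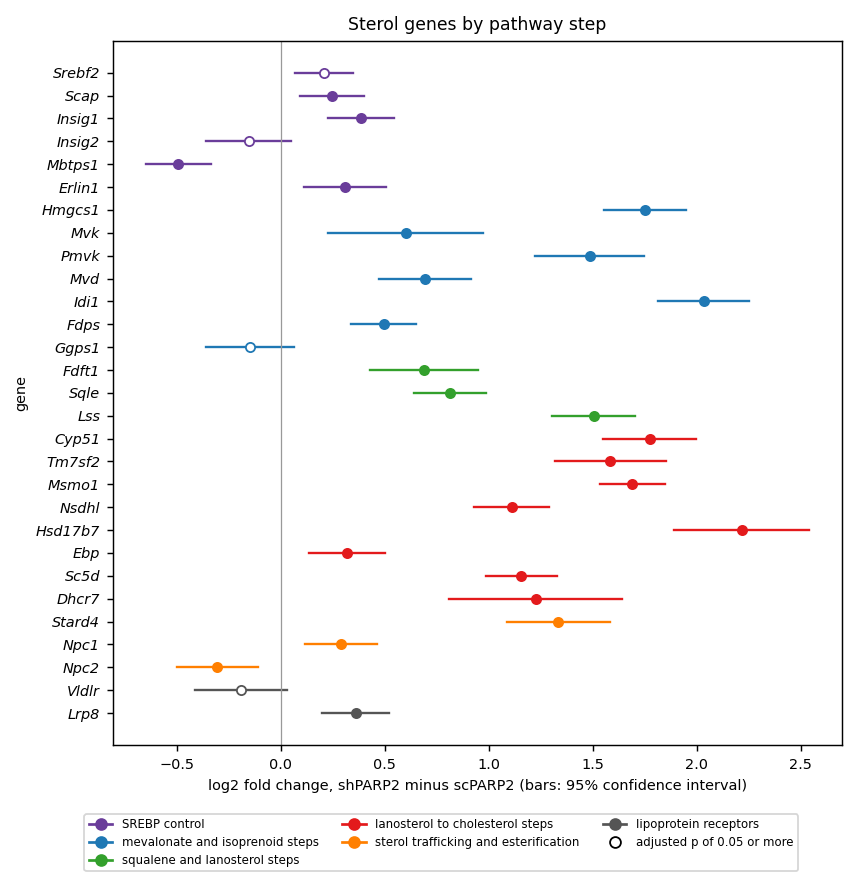
Horizontal axis, log2 fold change (shPARP2 minus scPARP2, n = 3 arrays per line) of the 29 sterol genes with a single-gene probe set, in pathway order from top to bottom. Points are estimates from limma, bars are 95% confidence intervals, colours are pathway steps, and open points have an adjusted p of 0.05 or more. The 17 enzymes that rose span 0.32 (Ebp) to 2.22 (Hsd17b7), and Ggps1 is the open point among the synthesis steps.

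Promoters of 4 synthesis enzymes with large increases are shown as a description. The promoter of Mbtps1, which fell, is shown beside them. Whether SREBP2 took part in these changes was not tested. RefSeq promoter windows (GRCm38.p6, 250 bases before and 50 after an annotated start) were held for 26 of the 31 genes. Searched on both strands were an SRE core (TCACNCCAC), a short SRE core (CACNCCAC, which every SRE core contains), the E-box CACGTG and the NF-Y box CCAAT. The sequences below are the 250 bases before the start, written 5′ to 3′ on the strand of the gene. Capitals mark an SRE core, an E-box or an NF-Y box, the last of which reads ATTGG on the opposite strand. Hmgcs1 (chr13:119690101-119690350, plus strand) is the called sterol gene whose window holds an SRE core. Hsd17b7 (chr1:169969206-169969455, minus strand), Idi1 (chr13:8885356-8885605, plus strand) and Cyp51 (chr5:4104698-4104947, minus strand) had the largest increases of the 29 genes. Mbtps1 (chr8:119558762-119559011, minus strand) fell the most. The promoters other than that of Hmgcs1 were chosen after their values were seen.
Hmgcs1: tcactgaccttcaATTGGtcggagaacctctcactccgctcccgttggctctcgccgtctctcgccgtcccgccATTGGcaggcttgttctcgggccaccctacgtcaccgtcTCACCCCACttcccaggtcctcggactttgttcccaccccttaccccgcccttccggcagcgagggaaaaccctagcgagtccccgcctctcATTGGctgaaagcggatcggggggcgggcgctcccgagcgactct
Hsd17b7: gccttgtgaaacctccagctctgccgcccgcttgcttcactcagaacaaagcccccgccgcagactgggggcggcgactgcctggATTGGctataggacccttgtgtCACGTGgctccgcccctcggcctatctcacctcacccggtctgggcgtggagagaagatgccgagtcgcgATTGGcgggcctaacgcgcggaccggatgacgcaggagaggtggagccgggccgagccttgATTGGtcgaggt
Idi1: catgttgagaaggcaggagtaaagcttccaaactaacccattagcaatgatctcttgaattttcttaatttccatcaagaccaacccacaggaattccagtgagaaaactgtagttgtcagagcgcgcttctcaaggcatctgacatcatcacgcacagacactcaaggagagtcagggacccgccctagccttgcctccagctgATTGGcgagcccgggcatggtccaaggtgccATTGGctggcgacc
Cyp51: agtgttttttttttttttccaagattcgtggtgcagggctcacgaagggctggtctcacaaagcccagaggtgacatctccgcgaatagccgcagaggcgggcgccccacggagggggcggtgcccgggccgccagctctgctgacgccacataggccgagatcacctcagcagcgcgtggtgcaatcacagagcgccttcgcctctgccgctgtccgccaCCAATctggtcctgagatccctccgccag
Mbtps1: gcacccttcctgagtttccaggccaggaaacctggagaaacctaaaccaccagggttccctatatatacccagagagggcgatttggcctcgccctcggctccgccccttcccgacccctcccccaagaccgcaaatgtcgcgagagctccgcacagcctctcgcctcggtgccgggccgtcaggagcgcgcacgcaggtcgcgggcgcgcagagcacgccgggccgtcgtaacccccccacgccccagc

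The NF-Y box was the motif these promoters shared. It lay in a window of 15 of the 15 synthesis enzymes that had a promoter window, and in 22 of the 26 sterol genes. Among all 27025 genes with a window the share was 41.1%, and among 17492 protein-coding genes it was 42.3%. Hmgcs1 had 3 NF-Y boxes in the printed stretch around an SRE core at bases -137 to -129. Hsd17b7 had 3 NF-Y boxes with an E-box among them, Idi1 had 2 NF-Y boxes close to the start and Cyp51 had 1. Mbtps1 had none of the motifs. The E-box lay in 3 of the 15 enzymes and 6 of the 26 sterol genes, against 8.09% of all genes. The strict SRE core was found in Hmgcs1 among the 26, against 1.44% of all genes, and the short core in Hmgcs1 and Insig1, against 7.12%. Ggps1, the enzyme whose mRNA did not pass the test, also had NF-Y boxes. An NF-Y box also lay in a window of Npc2, which was lower, and of Insig2 and Vldlr, which did not pass. Scap and Lrp8, which were higher, had none in any window. The NF-Y box thus did not separate the genes that rose from the others. Only exact matches to these letters were counted, so a window without one may still hold an SRE that differs from them. A match of letters is a description of the window and does not show binding.

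**Figure D2:**
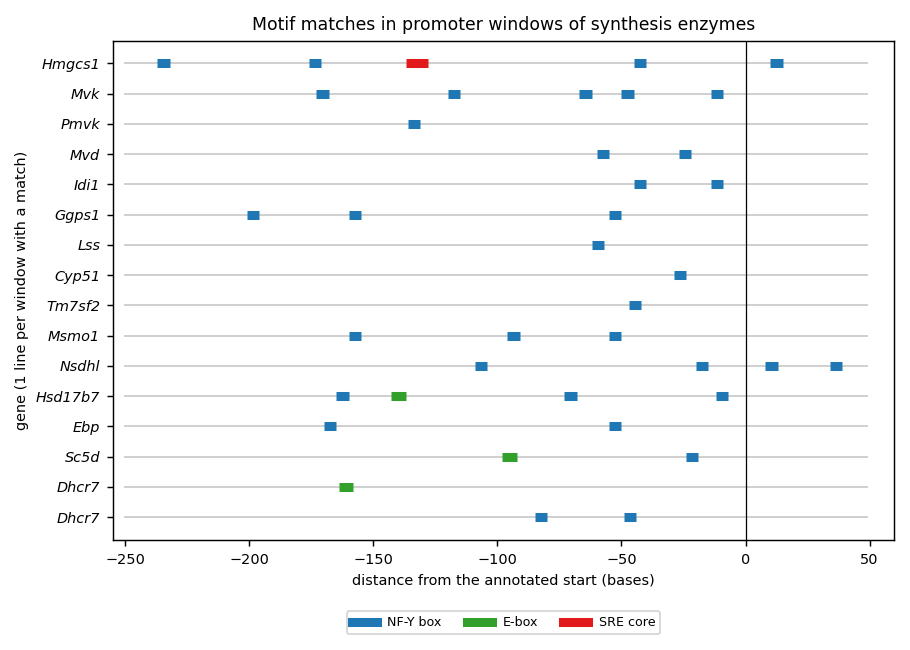
Positions of NF-Y box, E-box and SRE core matches in the promoter windows of synthesis enzymes (horizontal axis, distance in bases from the annotated start, start at 0), with 1 line per window that holds a match. Each of the 15 enzymes with a window has at least 1 NF-Y box, and Hmgcs1 has the SRE core.

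The changes of the control genes were small. Of the 6 SREBP control genes read on single-gene probe sets, 3 rose and 1 fell, with a median log2 fold change of 0.23 and none changing 2-fold. Of all genes 12.4% were higher and 11.6% lower. Srebf2, which encodes SREBP2, read 11.75, 11.74 and 11.75 in scPARP2 and 11.94, 11.95 and 11.96 in shPARP2 cells. The lines did not overlap, but the log2 fold change of 0.21 missed the threshold (SE 0.06, limma adjusted p = 0.0533). It passed under 5 of the 14 alternative settings that kept the threshold, with adjusted p-values from 0.00555 to 0.0325. It did not pass with quantile normalization, centring, the replicate block or any single array left out. Another probe set that names Srebf2 together with Ube3a, C230091D08Rik and P3h3 had a log2 fold change of 0.50 (adjusted p = 0.0164 from limma) and cannot be assigned to a single gene.

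Insig1, the sterol-dependent retention factor and itself a known SREBP target, read 12.64, 12.56 and 12.62 in scPARP2 and 12.97, 13.06 and 12.95 in shPARP2 cells. It rose by a log2 fold change of 0.39 (SE 0.07, limma adjusted p = 0.00963). Its relative Insig2 read 10.90, 10.95 and 11.00 against 10.75, 10.70 and 10.94. The Insig2 values overlapped between the lines and the difference of -0.15 did not pass (adjusted p = 0.298). Scap, the sterol-sensing escort, rose by 0.25 (adjusted p = 0.0437), and Erlin1, an endoplasmic reticulum protein that binds cholesterol and restrains SREBP export, rose by 0.31 (adjusted p = 0.0444). Mbtps1, the site-1 protease, was the control gene that fell. It read 11.54, 11.51 and 11.51 in scPARP2 and 10.97, 11.01 and 11.10 in shPARP2 cells, for a log2 fold change of -0.49 (SE 0.06, limma adjusted p = 0.00354). The site-2 protease gene Mbtps2 was read only on a probe set that also names Yy2, with a log2 fold change of -0.04 (adjusted p = 0.778). The calls of Scap and Erlin1 were fragile. Scap missed the threshold when any array other than shPARP2 replicate 3 was left out (adjusted p from 0.063 to 0.167) and Erlin1 when any of the 6 was (0.0586 to 0.163). Insig1 missed it without scPARP2 replicate 2 (0.0546) or 3 (0.0505).

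In the mevalonate and isoprenoid steps, 6 of 7 enzyme mRNAs rose, with a median log2 fold change of 0.69. Hmgcs1, the cytosolic HMG-CoA synthase that opens the pathway, read 10.40, 10.51 and 10.46 in scPARP2 and 12.16, 12.34 and 12.12 in shPARP2 cells. Every shPARP2 array lay above every scPARP2 array, and the mRNA rose 3.36-fold (log2 fold change 1.75, SE 0.08, limma adjusted p = 0.000106). Idi1, which isomerizes isopentenyl diphosphate, read 9.43, 9.49 and 9.47 against 11.45, 11.67 and 11.38. It rose 4.09-fold (log2 fold change 2.03, SE 0.09, limma adjusted p = 9.15e-05). Another Idi1 probe set gave 2.01 (adjusted p = 0.000124), and the readings of the pair differed by no more than 0.0396 on any array.

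The kinases and the decarboxylase between them rose less evenly. Pmvk, the phosphomevalonate kinase, read 7.31, 7.39 and 7.44 in scPARP2 and 8.83, 9.07 and 8.70 in shPARP2 cells, for a log2 fold change of 1.49 (SE 0.11, limma adjusted p = 0.000452). Mvk, the mevalonate kinase one step before it, read 9.20, 9.19 and 9.08 against 9.83, 10.02 and 9.42. Its shPARP2 arrays were widely spread, with an SD of 0.31 against 0.06 in scPARP2 cells, and its log2 fold change of 0.60 passed narrowly (SE 0.15, limma adjusted p = 0.0409). When any array other than shPARP2 replicate 3 was left out, the adjusted p of Mvk lay between 0.0718 and 0.134. Mvd, the mevalonate diphosphate decarboxylase, rose by 0.69 (adjusted p = 0.00363 from limma).

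The prenyl diphosphate synthases at the branch point parted. Fdps, which makes farnesyl diphosphate, the precursor of squalene, read 12.04, 12.10 and 12.03 in scPARP2 and 12.62, 12.53 and 12.51 in shPARP2 cells and rose by 0.49 (SE 0.07, limma adjusted p = 0.00362). Ggps1, which draws farnesyl diphosphate into geranylgeranyl diphosphate for protein prenylation and away from sterols, read 10.37, 10.41 and 10.46 against 10.14, 10.25 and 10.42. Its lines overlapped and its log2 fold change of -0.15 did not pass the test (95% confidence interval -0.36 to 0.06, adjusted p = 0.341 from limma). Ggps1 was the only one of the 18 enzymes whose mean was not above that of scPARP2 cells.

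The 3 enzymes of the squalene and lanosterol steps all rose. Fdft1, the squalene synthase that commits farnesyl diphosphate to sterols, read 11.96, 12.08 and 12.02 in scPARP2 and 12.67, 12.92 and 12.54 in shPARP2 cells, for a log2 fold change of 0.69 (SE 0.11, limma adjusted p = 0.00665). Another Fdft1 probe set gave 0.60 (adjusted p = 0.00311), and the pair differed by up to 0.209 on an array. Sqle, the oxygen-dependent squalene epoxidase, rose by 0.81 (SE 0.07, adjusted p = 0.000922), with 11.46, 11.55 and 11.44 against 12.27, 12.39 and 12.24. Lss, the cyclase that forms lanosterol, rose the most of the 3. It read 10.37, 10.30 and 10.27 in scPARP2 and 11.85, 11.92 and 11.69 in shPARP2 cells, a 2.84-fold increase (95% confidence interval of the log2 fold change 1.31 to 1.70, limma adjusted p = 0.000183).

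The enzymes from lanosterol to cholesterol had the highest median log2 fold change of the steps, 1.40, and all 8 rose, 7 of them at least 2-fold. Hsd17b7, the ketoreductase of sterol demethylation, read 8.91, 9.09 and 8.98 in scPARP2 and 11.21, 11.46 and 10.96 in shPARP2 cells. It rose 4.65-fold (log2 fold change 2.22, SE 0.13, limma adjusted p = 0.000252) and ranked 35 among the 19938 genes by log2 fold change, the highest rank of the 29. Cyp51, the lanosterol demethylase, read 10.26, 10.25 and 10.10 against 11.91, 12.14 and 11.89, a log2 fold change of 1.77 (SE 0.09, adjusted p = 0.000154). Tm7sf2, the sterol reductase that acts after Cyp51, read 8.11, 8.02 and 7.94 against 9.58, 9.81 and 9.43, a log2 fold change of 1.58 (SE 0.11, adjusted p = 0.0004). The lines stood apart by more than 1 log2 unit in all 3 genes.

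Msmo1 and Nsdhl work with Hsd17b7 in the complex that removes methyl groups from the ring. Msmo1, the methylsterol monooxygenase, read 10.64, 10.66 and 10.60 in scPARP2 and 12.25, 12.36 and 12.36 in shPARP2 cells, and its log2 fold change of 1.69 had the smallest adjusted p of the sterol genes (SE 0.07, limma adjusted p = 4.77e-05). Nsdhl, the sterol dehydrogenase of the same complex, read 11.25, 11.25 and 11.19 against 12.41, 12.37 and 12.23, a log2 fold change of 1.11 (SE 0.07, adjusted p = 0.000336). Sc5d, the sterol desaturase, rose by 1.16 (adjusted p = 0.000257). Dhcr7, the reductase of the last step of the Kandutsch-Russell branch, read 8.85, 9.01 and 8.90 against 10.22, 10.45 and 9.76. It rose by 1.23 with the widest shPARP2 spread of the enzymes, an SD of 0.35 (SE 0.17, limma adjusted p = 0.00454). Ebp, the sterol isomerase, was the exception in size. It read 9.79, 9.93 and 9.78 against 10.08, 10.22 and 10.15, and its log2 fold change of 0.32 passed narrowly (SE 0.08, limma adjusted p = 0.0328). With each of the 6 arrays left out in turn, the adjusted p of Ebp lay between 0.0511 and 0.14.

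**Figure D3:**
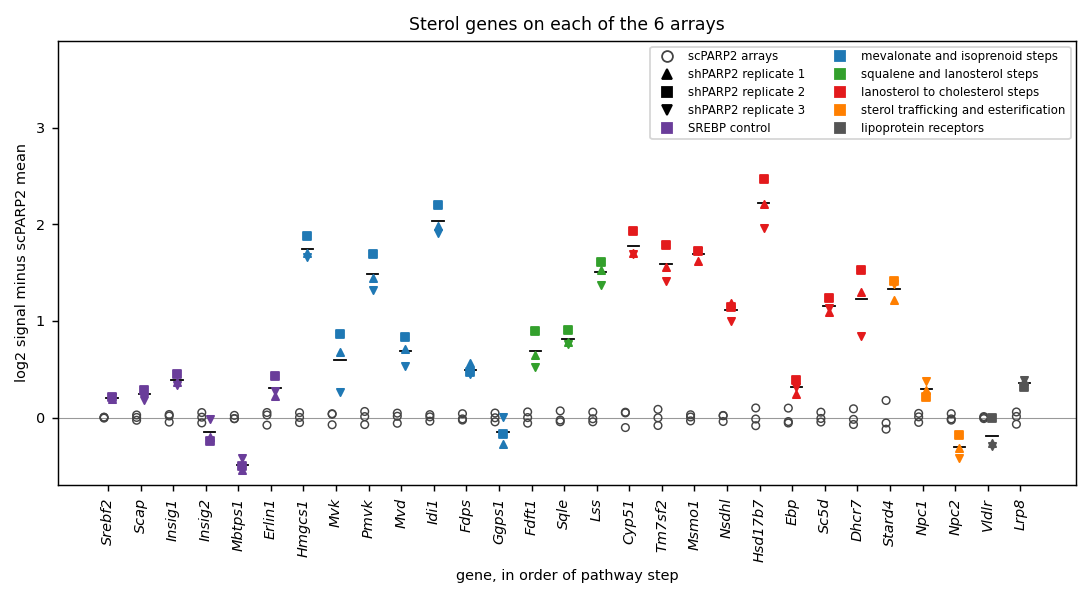
Vertical axis, each array minus the scPARP2 mean in log2 units, for the 29 sterol genes in pathway order (horizontal axis). Open circles are the 3 scPARP2 arrays, the triangle, square and inverted triangle are shPARP2 replicates 1, 2 and 3, and black bars are shPARP2 means. For 15 of the 18 enzymes the square, replicate 2, is the highest shPARP2 point.

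The shPARP2 arrays kept an order over the enzymes. Replicate 2 was the highest shPARP2 array for 15 of the 18 enzymes, compared with 34.3% of all genes, and replicate 3 was the lowest for 14, compared with 27.7%. Replicate 2 was also the lowest shPARP2 array for 44.3% of all genes. The order was not particular to the enzymes. Fasn, Acly and Elovl6 of fatty acid synthesis and Plk1 and Aurkb of the proliferation markers had it too. Other genes of these lists did not, such as Pcna, which was highest in replicate 3. The median difference of the 18 enzymes from the scPARP2 mean was 1.25, 1.38 and 1.07 log2 units in shPARP2 replicates 1, 2 and 3. Over all genes the same medians were 0.01, -0.08 and 0.01. The enzymes had a larger SD among shPARP2 than among scPARP2 arrays in 17 of 18 cases, and so did 78.4% of all genes. Whether culture, RNA or hybridization set this order was not tested. The median log2 fold change of the 29 sterol genes was 0.59 without shPARP2 replicate 2 and 0.77 without replicate 3.

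The genes that move sterol within the cell were split. Stard4, a soluble carrier that brings cholesterol to the endoplasmic reticulum and a known SREBP2 target, read 8.11, 8.34 and 8.04 in scPARP2 and 9.37, 9.57 and 9.54 in shPARP2 cells. It rose 2.52-fold (log2 fold change 1.34, SE 0.10, limma adjusted p = 0.000562), and was the only gene of at least 2-fold change among the 11 measured sterol genes that are not synthesis enzymes. The NPC proteins hand cholesterol out of the lysosome, NPC2 as the soluble carrier and NPC1 in the membrane. Npc1 read 11.95, 11.85 and 11.91 against 12.19, 12.12 and 12.28, a log2 fold change of 0.29 (SE 0.07, adjusted p = 0.0357). Npc2 read 11.79, 11.78 and 11.85 against 11.49, 11.63 and 11.39, a log2 fold change of -0.30 (SE 0.08, adjusted p = 0.0456). The mRNAs of these partners changed in opposite directions, each without overlap between the lines. Both calls ended when any array other than shPARP2 replicate 2 was left out, with adjusted p-values from 0.0636 to 0.143 for Npc1 and from 0.0785 to 0.17 for Npc2. Soat1, which esterifies cholesterol for storage, was not analysed here.

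Of the lipoprotein receptors, Lrp8, which binds apolipoprotein E and reelin, read 9.22, 9.10 and 9.18 in scPARP2 and 9.54, 9.48 and 9.56 in shPARP2 cells. It rose by 0.36 (SE 0.07, limma adjusted p = 0.0129) and missed the threshold without scPARP2 replicate 2 (adjusted p = 0.0666) or 3 (0.0637). Its close relative Vldlr read 8.46, 8.45 and 8.47 against 8.20, 8.45 and 8.16. Here shPARP2 replicate 2 lay with the scPARP2 arrays and the others below them. The log2 fold change of Vldlr was -0.19 (adjusted p = 0.237), and without shPARP2 replicate 2 it was -0.28 and passed (adjusted p = 0.024).

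Over all 29 genes, 24 had all shPARP2 arrays above all scPARP2 arrays and 2 had them all below, where 20.7% and 21.4% of all genes did. The enzymes numbered 17 without overlap upwards and 0 downwards, and 0 of 18 were lower in limma, also at an unadjusted p under 0.05. Of the 11 other measured sterol genes 6 were higher and 2 lower in limma, where 12.4% and 11.6% of all genes were. Their median log2 fold change was 0.25, against 1.19 for the 18 enzymes. The difference between these medians was not tested.

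Neighbouring lists of sterol metabolism, described in the same fit, held both higher and lower genes apart from fatty acid synthesis. For comparison, 12.4% of all genes were higher and 11.6% lower. Of 10 measured accessory sterol enzymes and electron donors, 3 rose and 3 fell, with a median log2 fold change of -0.05. Lbr, whose product shares the reductase activity of Tm7sf2, rose by 0.66 (adjusted p = 0.00141 from limma). Erg28, the scaffold of the demethylation complex, read 11.55, 11.55 and 11.62 against 12.12, 12.36 and 11.86 and rose by 0.54 (adjusted p = 0.0318). Cyb5a, the cytochrome b5 that passes electrons to Sc5d and other desaturases, fell by 0.92 on the log2 scale (adjusted p = 0.0013), with 10.85, 10.94 and 10.84 against 9.92, 10.12 and 9.84. Ebpl, an Ebp relative, fell by 0.56 (adjusted p = 0.00593). Erg28 missed the threshold with any scPARP2 array or shPARP2 replicate 1 left out (adjusted p from 0.089 to 0.106), and after centring of each array on its median (0.0563).

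Of 14 enzymes that spend isoprenoids outside sterols, 2 were higher and 3 lower, against 12.4% and 11.6% of all genes. The median log2 fold change of these 14 was -0.0037. Fnta and Pggt1b, subunits of the protein prenyltransferases, rose by 0.61 (adjusted p = 0.00833 from limma) and 0.62 (adjusted p = 0.0101). Srd5a3, the polyprenol reductase of dolichol synthesis, fell by 0.62 (adjusted p = 0.00649), and Coq2, the prenyltransferase of ubiquinone synthesis, fell by 0.30 (adjusted p = 0.036). The call of Coq2 ended with any scPARP2 array or shPARP2 replicate 1 left out (adjusted p from 0.084 to 0.138), and after centring (0.0789).

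In the machinery of sterol-dependent protein degradation, 4 of 11 genes rose and 1 fell, against 12.4% and 11.6% of all genes. The ubiquitin-conjugating enzyme genes Ube2g2 and Ube2j2 rose by 0.90 (adjusted p = 0.000537 from limma) and 0.54 (adjusted p = 0.00996). Rnf145, an endoplasmic reticulum ubiquitin ligase, rose by 0.59 (adjusted p = 0.00868). Erlin2, the partner of Erlin1, fell by 0.51 (adjusted p = 0.00785), opposite to Erlin1. Ube2j2 missed the threshold without scPARP2 replicate 3 (adjusted p = 0.0508).

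Among 9 genes of oxysterol synthesis and of the oxysterol receptor LXR, 2 rose and 2 fell, against 12.4% and 11.6% of all genes. Mylip, the LXR-induced ligase that sends lipoprotein receptors to degradation, read 10.35, 10.33 and 10.26 in scPARP2 and 9.27, 9.25 and 9.32 in shPARP2 cells, for a log2 fold change of -1.03 (SE 0.06, limma adjusted p = 0.000262). Abca1, the LXR-induced cholesterol exporter, read 7.32, 7.19 and 7.29 against 6.70, 6.70 and 6.57, a log2 fold change of -0.61 (SE 0.07, adjusted p = 0.00262). The lines stood apart in both genes. Lpcat3, a phospholipid-remodelling LXR target, rose by 0.54 (adjusted p = 0.0252), and Cyp27a1, an oxysterol-forming hydroxylase, rose by 0.40 (adjusted p = 0.0116). Abca1 and Cyp27a1 lay below the median of all probe sets in mean signal (percentiles 47.0 and 46.5). Abcg1, a further gene of this list, had a log2 fold change of 0.02 and did not pass (limma adjusted p = 0.931). Lpcat3 missed the threshold with any scPARP2 array or shPARP2 replicate 1 left out (adjusted p from 0.0587 to 0.0933), and Cyp27a1 without scPARP2 replicate 2 (0.059) or 3 (0.0586).

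Of 21 other genes of intracellular sterol transport, 5 rose and 4 fell, against 12.4% and 11.6% of all genes. Osbp, the oxysterol-binding protein that carries cholesterol to the Golgi, rose by 0.74 (adjusted p = 0.00119 from limma). The genes that fell included Lipa, the lysosomal lipase that frees cholesterol from lipoprotein esters (-0.63, adjusted p = 0.00353), Stard3, a late endosomal sterol carrier (-0.57, adjusted p = 0.00238), and Nceh1, a cholesterol ester hydrolase (-0.71, adjusted p = 0.00112). Of 12 other genes of lipoprotein receptors and related proteins, 3 rose and 1 fell. Those that rose were Sort1 (0.74, adjusted p = 0.0247), Lrp2 (0.42, adjusted p = 0.0224) and Scarb2 (0.35, adjusted p = 0.0228), and Lrp6 fell (-0.72, adjusted p = 0.000814). Sort1 and Lrp2 lay below the median of all probe sets in mean signal (percentiles 48.5 and 44.5). Sort1 missed the threshold without scPARP2 replicate 1 or 3 or shPARP2 replicate 1 (adjusted p from 0.0655 to 0.0923), Lrp2 with any scPARP2 array or shPARP2 replicate 1 left out (0.0612 to 0.097) and Scarb2 with any scPARP2 array left out (0.0795 to 0.104).

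Fatty acid synthesis, the arm of lipid synthesis governed mainly by SREBP1, had the largest median of the neighbouring lists. Of its 20 genes 14 rose and 0 fell in limma, against 12.4% and 11.6% of all genes. At an unadjusted p under 0.05, 1 was lower, and the median log2 fold change was 0.46. Acly, which makes the acetyl-CoA that both pathways use, read 10.24 on all scPARP2 arrays and 11.26, 11.41 and 10.97 on shPARP2 arrays, a log2 fold change of 0.97 (SE 0.12, limma adjusted p = 0.00266). Acss2, the acetyl-CoA synthetase, rose by 1.04 (adjusted p = 0.0112), Acaca, the acetyl-CoA carboxylase, by 0.94 (adjusted p = 0.000525) and Scd2, a stearoyl-CoA desaturase, by 0.83 (adjusted p = 0.000892). At least 2-fold changes upwards numbered 1 of 20 here and 11 of 18 among the sterol enzymes, and the difference between the lists was not tested.

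**Figure D4:**
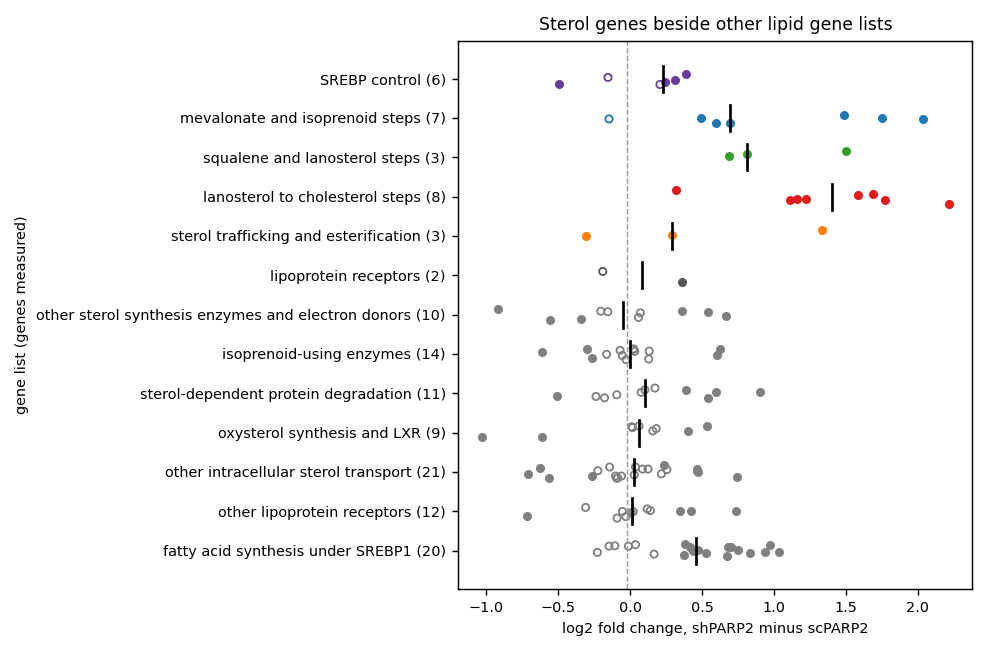
Log2 fold change (shPARP2 minus scPARP2) of each measured gene in the sterol steps and the neighbouring lists. Filled points have an adjusted p under 0.05, open points do not, black bars are list medians, and the dashed line is the median of all 19938 genes (-0.02). The steps from lanosterol to cholesterol have a median of 1.40 and fatty acid synthesis one of 0.46, while the medians of the other neighbouring lists lie between -0.05 and 0.10.

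Markers of muscle differentiation were described in the same fit. Of 12 myotube markers 8 rose and 0 fell in limma, where 12.4% of all genes were higher and 11.6% lower. At an unadjusted p under 0.05 the counts of markers were the same. The summed linear signal of the 12 markers was 9737 to 10594 in scPARP2 and 17690 to 23540 in shPARP2 cells. The 4 myotube markers that did not pass summed to 2038 to 2270 and 1487 to 2299. Mymk, the myoblast fusion factor, rose by 1.89 (adjusted p = 0.000261), Mylpf, a fast myosin light chain, by 1.26 (adjusted p = 0.00139), Acta1, skeletal actin, 2.30-fold (adjusted p = 0.000814) and Tnnt3, a fast troponin, by 1.13 (adjusted p = 0.00058). Of 11 myoblast markers 6 rose and 2 fell, and the sum was 17267 to 18015 against 23420 to 27821. The 3 myoblast markers that did not pass summed to 1139 to 1194 and 732 to 1400. Ncam1 (1.63, adjusted p = 4.1e-05), Cdh2 (1.53, adjusted p = 0.000172) and Myf5 (1.13, adjusted p = 0.00156) rose and Musk fell (-1.90, adjusted p = 0.000285). The part of differentiation in the sterol changes was not tested, and in RNA of whole cultures a change in the share of cells and a change per cell cannot be told apart.

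Of 11 proliferation markers 2 were higher and 1 lower, while 12.4% of all genes were higher and 11.6% lower. The summed signal of the 11 markers was 8968 to 9207 in scPARP2 and 10812 to 13593 in shPARP2 cells. The 8 markers that did not pass summed to 4132 to 4272 and 3433 to 6300, which overlapped. Rrm2 (1.59, adjusted p = 0.000665 from limma) and Pcna (0.50, adjusted p = 0.0051) rose, and Mcm2 fell by 0.29 (adjusted p = 0.0276). Mcm2 missed the threshold with any scPARP2 array or shPARP2 replicate 1 left out (adjusted p from 0.0745 to 0.129), and after centring (0.0795). Markers of other cell types did not pass the test upwards. Of 9 adipocyte, 7 osteoblast and chondrocyte, 8 macrophage and leukocyte and 10 epithelial and endothelial markers, 0 were higher in limma, with 1 (a macrophage and leukocyte marker) higher at an unadjusted p under 0.05. Below the median of all probe sets lay 6, 4, 7 and 8 markers of these lists. The genes that fell were Cebpa (-1.16, adjusted p = 0.000209), Sox9 (-1.73, adjusted p = 9.71e-05) and Cd68 (-0.72, adjusted p = 0.00119), and of the epithelial and endothelial list Emcn (-0.12, adjusted p = 0.398) and Epcam (-0.11, adjusted p = 0.41) had the smallest p-values. The summed signals were 2540 to 2615 and 2191 to 2227 for adipocyte, 3160 to 3328 and 1539 to 1609 for osteoblast and chondrocyte, 730 to 769 and 622 to 691 for macrophage and leukocyte, and 1061 to 1176 and 1025 to 1196 for epithelial and endothelial markers, scPARP2 before shPARP2. Without Sox9 the 6 other osteoblast and chondrocyte markers summed to 803 to 835 and 772 to 887, without Cebpa the 8 other adipocyte markers to 2050 to 2101 and 1978 to 1998, and without Cd68 the 7 other macrophage and leukocyte markers to 460 to 475 and 457 to 521.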

How the data were processed

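Deposited were log2 values of 35556 probe sets on 6 arrays (scPARP2 and shPARP2 C2C12 cells, 3 each), computed by the authors with RMA (robust multi-array average), as the processing notes of the submitters name it. The sources used here give no software version or array library. RMA corrects background, aligns the arrays and summarizes the probes of a probe set, which can compress changes of dim probe sets. Arrays give no read depth, and their number limits the precision. Names came from the platform annotation: 21789 probe sets name 1 gene, 1621 several, and 12146 are unnamed here.

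A linear model with empirical Bayes moderation and no covariate, the kind named in the methods of the study, was fitted in limma 3.58.1 (R 4.3.3). P-values were Benjamini-Hochberg adjusted across every probe set and read at 0.05. This gave 3345 higher and 3249 lower probe sets. The calculation was run on simulated data with known changes and independent noise. That run does not cover effects shared by the probe sets of an array. All sterol genes were named, and of each neighbouring list up to 4 genes with the largest change past the test, or the 2 with the smallest p. Abcg1 was named besides. Genes were not ranked by level; marker sums and positions against the median of all probe sets are rough descriptions, since probe affinities differ. The sterol genes and lists were chosen with earlier results of these data known. Some items are not reported here. Promoter windows came from RefSeq (GRCm38.p6). The alternatives were quantile normalization, centring, a filter on dim probe sets, single-gene probe sets, trended and robust variance, array weights, a replicate block, an adjusted p under 0.01, a 1.5-fold change, averaged probe sets, and each array left out. Figures were drawn with matplotlib 3.10.9.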

Additional observations from a re-analysis of the deposited data

How the results depend on the processing

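Across the alternatives 16 to 24 sterol genes were higher, and their median log2 fold change lay between 0.59 and 0.77. Of the 25 called sterol genes, 17 held their call under each of the 14 settings that kept the threshold and 15 also at both stricter thresholds, and no value of a sterol gene changed sign (351 of 406 values kept direction and call, 48 lost the call and 7 gained it). The lost calls were those of Scap, Erlin1, Mvk, Ebp, Npc1, Npc2, Insig1 and Lrp8, with Mbtps1 and Fdps lost at a change of at least 1.5-fold, and the gained ones those of Srebf2 and Vldlr. Calls ended with quantile normalization for Scap (adjusted p = 0.0956) and Erlin1 (0.0542), after centring for Scap (0.0824), Erlin1 (0.0828), Mvk (0.0655), Ebp (0.0602) and Npc2 (0.132), and with the replicate block for Scap (0.118), Erlin1 (0.0677), Ebp (0.0599), Npc1 (0.0803) and Npc2 (0.111). Of the genes named from other lists, Erg28, Coq2 and Mcm2 also lost their calls after centring, and these, Lrp2 and Scarb2 with the replicate block (0.0654 to 0.0936). The sterol genes lower in shPARP2 cells numbered 1 after centring, with the replicate block and at an adjusted p under 0.01, 0 in limma at a change of at least 1.5-fold (2 at an unadjusted p under 0.05 with no limit on fold), and 1 to 3 when single arrays were left out. Srebf2 passed with dim probe sets left out (adjusted p = 0.0199), with single-gene probe sets only (0.0321), with a trended and robust variance (0.00555), with array weights (0.024) and with averaged probe sets (0.0325).

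Over all probe sets, 1842 to 3449 were higher and 1761 to 3782 lower when single arrays were left out, the fewest without a scPARP2 array. At an adjusted p under 0.01, 1736 were higher and 1589 lower, at a change of at least 1.5-fold 1458 and 1327, and with array weights 4941 were lower. Deviations of same-numbered arrays correlated at -0.05, 0.09 and 0.01, and those of differently numbered arrays at -0.10 to 0.09. With 3 arrays per line these values cannot settle whether the samples were handled in pairs. With the replicate number as a block, 19 sterol genes were higher and 1 lower, and over all probe sets 2455 and 2338. With 3 arrays per line and no depth, small changes of dim probe sets are poorly resolved. The causes of these shifts were not tested.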
